A study of Homo sapiens with 8 samples.

Results

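Laminin-332 and the hemidesmosome proteins that bind it were followed as 9 genes, LAMA3, LAMB3, ITGA3, ITGA6, ITGB4, COL17A1, PLEC, DST and CD151, chosen by name from the 56632 genes of the table, of which 29502 had a count in at least 1 library. All 9 passed the filter on low counts and were among the 18431 genes tested. They are abundant in these cells. Ranked by mean CPM over the 8 libraries (counts scaled to library size, the sizes set by edgeR's TMM method, and with no correction for length), ITGB4 was at rank 101 of the 18431 genes and CD151, the lowest of the 9, at rank 455.

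Laminin-332 is a cross-shaped protein of epithelial basement membranes, and its alpha 3 and beta 3 chains are encoded by LAMA3 and LAMB3. Basal epithelial cells hold on to it with integrin alpha 6 beta 4, which sits in the hemidesmosome together with the transmembrane collagen XVII. On the inner face the plakins plectin and dystonin tie these receptors to keratin filaments. Integrin alpha 3 beta 1 binds the same laminin outside hemidesmosomes and signals through focal adhesions, and the tetraspanin CD151 associates with both integrins. In the mammary gland these contacts lie between the myoepithelial layer and the stroma, and loss or rearrangement of them is a familiar feature of invasive carcinoma.

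The cells were the MCF10A series of human mammary epithelial lines. M1 is MCF10A, an immortalized line that does not form tumours. M2 is MCF10AT1k.cl2, MCF10A that carries activated T24-HRAS and was selected by growth as a xenograft, where it gives premalignant lesions. M3 (MCF10Ca1h) and M4 (MCF10CA1a.cl1) were both derived from carcinomas that arose in M2 xenografts, M3 giving well-differentiated and M4 relatively undifferentiated carcinomas. Each line was grown for 8 days in growth-factor-reduced Matrigel, in medium with 2% horse serum and 2.5% Matrigel, hydrocortisone, cholera toxin and insulin, and each was sequenced as 2 replicates. The medium of M1 and M2 held EGF at 10 ng/ml and that of the carcinoma lines held none, so in any comparison of a carcinoma line with M1 or M2 the line and the absence of EGF cannot be told apart. M2 against M1 and M4 against M3 are comparisons within 1 medium. Each line is a single model, and a difference between lines is a difference between these cultures.

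Library totals ran from 69669970 to 107350344 counts. HRAS, the gene introduced into M2, was at 154.1 and 138.7 CPM in M1, 159.8 and 153.5 in M2, then 269.3 and 327.1 in M3 and 335.2 and 352.4 in M4, so its level did not set the M2 libraries apart from the M1 libraries. In the study's own supplementary expression table, the column headed as replicate 2 of M1 matched the library that the sample labels give as replicate 1 of M2, and the column headed as replicate 1 of M2 matched the library labelled replicate 2 of M1. The other 6 columns went with the library that bears their name. In the numbering of the deposited columns, the library labelled replicate 2 of M1 stands between replicate 1 of M1 and replicate 1 of M3. The library labelled replicate 1 of M2 stands between replicate 1 of M4 and replicate 2 of M2. Which assignment is right was not settled. The labels are used here, and every call was also computed with these 2 libraries exchanged and with both left out. As labelled, the M2 replicates were far closer to each other than those of any other line. Their coefficient of variation in edgeR was 0.058, against 0.377 in M1, 0.307 in M3 and 0.271 in M4. Spearman's rho across genes was 0.998 between the M2 replicates, 0.971 between the M1 replicates and 0.959 to 0.963 between M1 and M2 libraries. The study describes the replicates as biological. The p-values measure the spread between these libraries, estimated over the 4 lines together although their spreads were unlike, and the spread within M2 may be technical.

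Upstream sequences of the 3 genes that frame the results are printed here, the laminin chain genes LAMA3 and LAMB3 and, beside them, COL17A1, which was called in none of the comparisons. They come from RefSeq (GRCh38.p14), which gave promoter windows for LAMA3, LAMB3, ITGA6, DST and COL17A1, 5 of the 9 genes. Each window was matched to 1 place in GRCh37, the build of the study's alignment, and the coordinates are of that build. Capitals mark TGANTCA, the binding motif of the AP-1 family of transcription factors, which reads the same on both strands. The LAMA3 sequence is chr18:21452734-21452983 on the plus strand and ends at the base before an internal transcript start of the gene. The LAMB3 sequence is chr1:209824740-209824969 on the minus strand and ends before the first exon of an internal start. The COL17A1 sequence is chr10:105845639-105845888 on the minus strand and ends at the base before the gene's start.
LAMA3: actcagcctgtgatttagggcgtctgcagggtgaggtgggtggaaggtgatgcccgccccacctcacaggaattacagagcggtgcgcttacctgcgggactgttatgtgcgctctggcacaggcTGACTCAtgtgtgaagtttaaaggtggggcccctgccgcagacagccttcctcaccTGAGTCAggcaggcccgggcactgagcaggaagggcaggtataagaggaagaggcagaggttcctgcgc
LAMB3: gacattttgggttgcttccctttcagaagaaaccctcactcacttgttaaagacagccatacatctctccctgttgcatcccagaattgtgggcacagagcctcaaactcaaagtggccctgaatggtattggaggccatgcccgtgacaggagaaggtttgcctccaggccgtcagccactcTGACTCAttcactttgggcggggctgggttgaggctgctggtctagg
COL17A1: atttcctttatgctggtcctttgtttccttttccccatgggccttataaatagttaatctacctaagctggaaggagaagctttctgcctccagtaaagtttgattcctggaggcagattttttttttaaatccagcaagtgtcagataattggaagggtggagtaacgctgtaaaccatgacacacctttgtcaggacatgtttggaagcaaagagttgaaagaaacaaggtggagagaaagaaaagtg
The LAMA3 window held the motif at 2 places, beginning 125 and 69 bases before the RefSeq start, and 1 of the 3 LAMB3 windows held it once, beginning 67 bases before its RefSeq start. The LAMB3 windows without the motif include that at the gene's start, and the sequence printed is from the window with it. The last 20 bases of that printed LAMB3 window lie in an annotated first exon and are left out. None of the windows of ITGA6, DST or COL17A1 held these letters. Over all 34788 distinct windows of 250 bases, 6.59% held the motif. The matches are letters in a sequence, and binding was not measured.

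**Figure D1:**
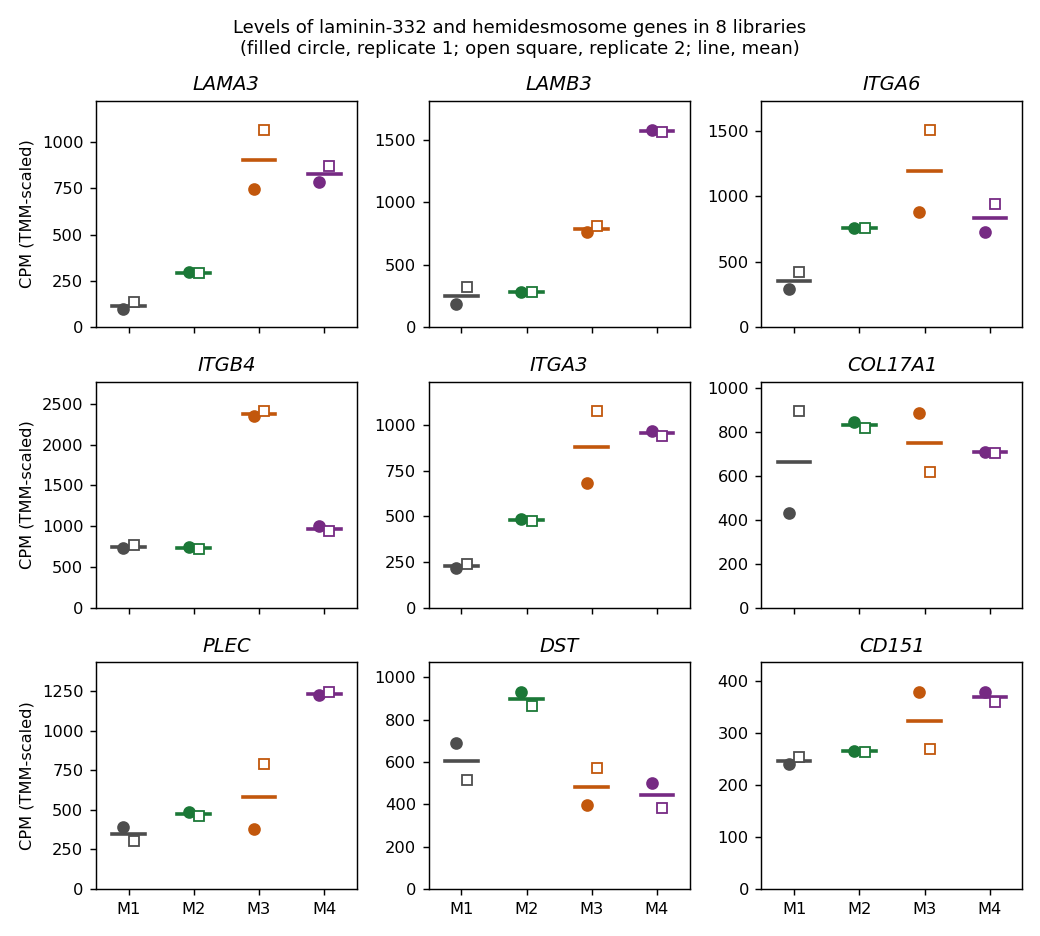
Level of each of the 9 genes in the 8 libraries, as TMM-scaled CPM on axes that start at 0, by line. Filled circles are replicate 1, open squares replicate 2 and lines the mean of 2. LAMA3, LAMB3 and ITGA3 are higher in all 4 carcinoma libraries than in all 4 libraries of M1 and M2, ITGB4 stands apart in M3, PLEC and LAMB3 in M4, and the COL17A1 libraries of M1 lie at 432.4 and 896.7 CPM.

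Against M1, the genes of the laminin chains and of the integrin alpha subunits rose in both carcinoma lines, ITGB4 rose in M3, PLEC rose in M4, and COL17A1, DST and CD151 were not called in either. The threshold for a call was an adjusted p under 0.05 (edgeR quasi-likelihood test, Benjamini-Hochberg over all genes tested) with an absolute log2 fold change above 1. In M3, 5 of the 9 genes were called higher, where 8.02% of all tested genes were, and in M4 also 5, where 9.48% were. None was called lower than in M1 by edgeR in M3, where 5.51% of all genes were, or in M4, where 11.2% were. At an unadjusted p under 0.05 the count of lower genes was also 0 in both, and DESeq2 called 0. In M2, LAMA3 and ITGA3 were the 2 genes called higher, against 2.26% of all genes, and 0 were called lower by edgeR, against 1.11% (0 at an unadjusted p under 0.05 and 0 by DESeq2). The 9 genes had a median log2 fold change of 0.45 (M2), 1.64 (M3) and 1.24 (M4), and that of all genes tested was -0.035, -0.016 and -0.017. These 3 comparisons share the M1 libraries.

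Compared with M2, 3 genes were called higher in M3 (2.95% of all genes were) and 0 lower by edgeR (1.2% of all genes were), with 1 gene lower at an unadjusted p under 0.05 and 0 by DESeq2. In M4 against M2, 3 genes were higher (6.98% of all genes) and 1 was lower (6.94%). Between the carcinoma lines, 1 gene was higher in M4 (3.99% of all genes) and 1 was lower (6.3%). These were LAMB3 and ITGB4. The median log2 fold change of the 9 genes was 0.66 in M3 against M2, 0.48 in M4 against M2 and -0.09 in M4 against M3, beside medians over all genes of -0.004, -0.007 and -0.024. The calls that involve M2, except LAMB3 in M4 against M2, were lost when either M2 library alone was left out. Over all genes the calls in these comparisons also fell without either M2 library. These fits hold fewer libraries, so the part of the close M2 replicates was not tested. With either M2 library alone left out, no gene of the 9 was called in M2 against M1 or in M3 against M2. In M4 against M2 only LAMB3 was. A further fit left out replicate 1 of M2 together with replicate 2 of M1. There ITGB4 in M3 against M2 and LAMA3 and LAMB3 in M4 against M2 were called. In M2 against M1, the LAMA3 call was also lost without replicate 1 of M1 (adjusted p = 0.0688) and the ITGA3 call without either M1 library (adjusted p = 0.127 and 0.0714).

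**Figure D2:**
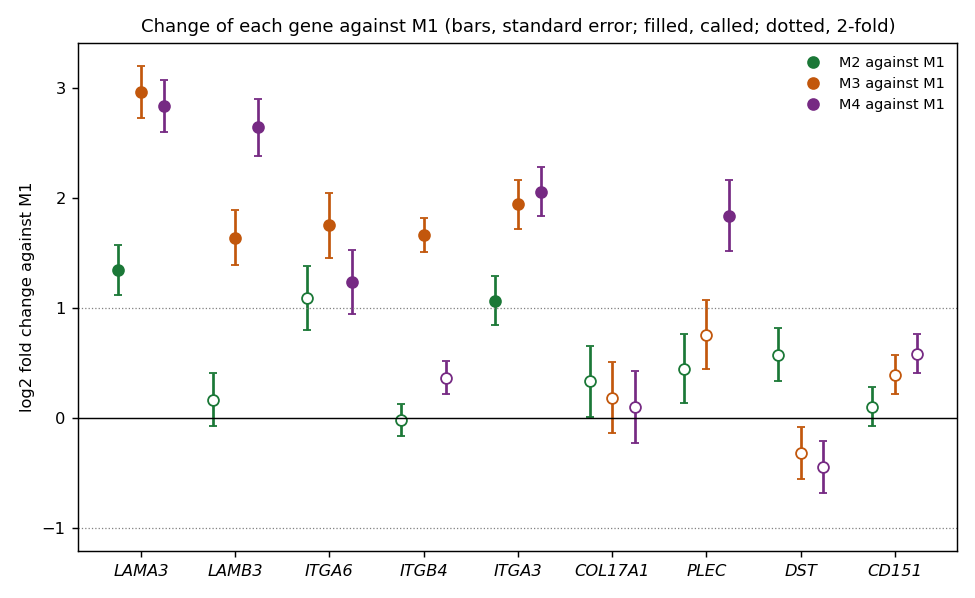
Log2 fold change of each gene in M2, M3 and M4 against M1, from the edgeR fit over all 8 libraries. Bars are 1 standard error, filled points are called and dotted lines mark a 2-fold change. LAMA3 has the largest changes, 2.96 in M3 and 2.83 in M4, and COL17A1 lies between 0.10 and 0.33 in the 3 lines.

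LAMA3 encodes the laminin alpha 3 chain, which carries the domains that integrins bind (ENSG00000053747, chromosome 18, 21269417 to 21536186, plus strand, GRCh37). Its level was 98.2 and 134.1 CPM in M1 and 297.4 and 291.8 in M2, against 747.6 and 1064 in M3 and 783.4 and 870.8 in M4. All 4 carcinoma libraries were above both M2 libraries, and these above both M1 libraries, so the order was M1, M2 and then the carcinoma lines, which overlapped each other. Against M1 it was 2.54-fold higher in M2 (log2 fold change 1.34, SE 0.22, adjusted p = 0.0185), and the log2 fold change was 2.96 in M3 (SE 0.24, adjusted p = 0.000547) and 2.83 in M4 (SE 0.24, adjusted p = 0.000304). From M2 it rose by a further 1.62 in M3 (adjusted p = 0.00866) and 1.49 in M4 (adjusted p = 0.00426) on the log2 scale. Between M4 and M3 the log2 difference was -0.13 (SE 0.22, adjusted p = 0.716). The gene count pools transcripts from the first start of the gene and from the internal start whose upstream sequence is printed above, and the table does not separate them.

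LAMB3 encodes the beta 3 chain, which occurs in laminins of epithelia (ENSG00000196878, chromosome 1, 209788215 to 209825770, minus strand). It stood at 183.1 and 319.6 CPM in M1, 279.7 and 284.2 in M2, and in the carcinoma lines 758.3 and 806.8 (M3) and 1574 and 1558 (M4). M1 and M2 overlapped, M3 was above both and M4 above M3, with no overlap. M2 was not called against M1 (log2 fold change 0.17, SE 0.25, adjusted p = 0.731). The rise over M1 was 1.64 in M3 (SE 0.25, adjusted p = 0.0047) and 2.64 in M4 (SE 0.26, adjusted p = 0.000531), and over M2 it was 1.47 (adjusted p = 0.0179) and 2.47 (adjusted p = 0.00116). LAMB3 was thus the chain whose level separated the carcinoma lines, with a log2 difference of 1.00 between M4 and M3 (SE 0.25, adjusted p = 0.0318). That call lies at the 2-fold limit and was lost without any 1 of the M3 or M4 libraries, where the log2 difference was 0.95 to 1.04. It was also lost with replicate 2 of M1 and replicate 1 of M2 exchanged (1.00, adjusted p = 0.0641) or both left out (0.9965). The same held without the filter on low counts (0.9976) and with no M2 library in the fit (1.00, adjusted p = 0.0728).

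ITGA6 encodes integrin alpha 6, the partner of beta 4 in hemidesmosomes (ENSG00000091409, chromosome 2, 173292082 to 173371187, plus strand). Its levels were 290.7 and 420.2 CPM in M1, 756.4 and 758.3 in M2, then 882.3 and 1506 in M3 and 732.2 and 941.3 in M4. The M1 libraries were the lowest 2 of the 8, and the M4 libraries overlapped those of both M2 and M3. Against M1 the gene rose in M3 (log2 fold change 1.75, SE 0.30, adjusted p = 0.00683) and in M4 (1.24, SE 0.29, adjusted p = 0.0162). In M2 the log2 fold change was 1.09 (SE 0.29) and missed the threshold with an adjusted p of 0.0766. DESeq2 called it (1.08, adjusted p = 0.00609), as did edgeR without the filter on low counts or with the replicate number in the fit. With the 2 doubtful libraries exchanged the log2 fold change in M2 was 0.17. The M4 call was lost without replicate 1 of M1 (1.01, adjusted p = 0.0768) or without replicate 2 of M4 (1.06, adjusted p = 0.095). ITGA6 shares exon sequence with 3 antisense RNAs, of which PDK1-AS1 had the most counts, at most 145 in a library, against 24049 to 131145 for ITGA6.

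ITGB4 encodes integrin beta 4, whose long cytoplasmic tail binds plectin and which pairs only with alpha 6 (ENSG00000132470, chromosome 17, 73717408 to 73753899, plus strand). The gene was at 736.9 and 766.5 CPM in M1 and 752 and 727.9 in M2, against 2347 and 2409 in M3 and 998.1 and 939.5 in M4. Both M3 libraries were more than 2-fold above each of the other 6, and the M4 libraries lay just above those of M1 and M2. In M3 it was 3.16-fold higher than in M1 (log2 fold change 1.66, SE 0.15, adjusted p = 0.00077) and 3.21-fold higher than in M2 (1.68, SE 0.15, adjusted p = 0.00228). M4 was lower than M3 by 1.30 on the log2 scale (SE 0.15, adjusted p = 0.00317), and that call held under every alternative tried, with an adjusted p of at most 0.033. The log2 fold change of M4 against M1 was 0.37 (SE 0.15, adjusted p = 0.0954), and that of M2 against M1 was -0.02 (SE 0.15, adjusted p = 0.948). ITGB4 was the 1 receptor subunit of the 3 that was called in only 1 carcinoma line against M1, and the difference between the carcinoma lines is the test just given.

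ITGA3 encodes integrin alpha 3, the laminin receptor that pairs with beta 1 (ENSG00000005884, chromosome 17, 48133332 to 48167845, plus strand). It was measured at 216.3 and 242.2 CPM in M1, 483.4 and 476.5 in M2, and in the carcinoma lines 684.6 and 1074 (M3) and 967.1 and 937.8 (M4). As for LAMA3, the libraries of M1, M2 and the carcinoma lines formed 3 steps without overlap, and M3 and M4 overlapped. Against M1 it was higher by 1.07 in M2 (SE 0.22, adjusted p = 0.0368), by 1.94 in M3 (SE 0.22, adjusted p = 0.00168) and by 2.05 in M4 (SE 0.22, adjusted p = 0.000773) on the log2 scale. Against M2 the log2 fold change was 0.87 in M3 (adjusted p = 0.0611). Without replicate 1 of M3 it was 1.17 (adjusted p = 0.0141), and without replicate 2 it was 0.51 (adjusted p = 0.089). In M4 it was 0.99 against M2 (adjusted p = 0.0173), just under the 2-fold limit, and it was called under other scalings (1.01 with DESeq2's type of size factors and 1.04 with total counts), in DESeq2 and in a fit of only these lines. M4 and M3 differed by 0.12 (SE 0.22, adjusted p = 0.745).

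COL17A1 encodes collagen XVII, which spans the membrane and binds laminin-332 from the outside and integrin beta 4 and the plakins from the inside (ENSG00000065618, chromosome 10, 105791044 to 105845638, minus strand). Its M1 libraries were at 432.4 and 896.7 CPM, the lowest and the highest of all 8. M2 was at 849 and 822.2, M3 at 888.1 and 619.8 and M4 at 712.8 and 708.4. No order among the lines could be read from these values, since M1 spanned the other lines, and whether COL17A1 differed from M1 is undetermined. The log2 fold change against M1 was 0.33 in M2, 0.18 in M3 and 0.10 in M4, each with an SE of 0.32, and the adjusted p ran from 0.586 to 0.846. It was called in none of the 6 comparisons by edgeR, with 0 of 6 also at an unadjusted p under 0.05.

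PLEC encodes plectin, which links integrin beta 4 to keratins (ENSG00000178209, chromosome 8, 144989321 to 145050902, minus strand). It gave 388 and 302.9 CPM in M1, 483.6 and 458 in M2, then 377 and 789 in M3 and 1224 and 1244 in M4. Both M4 libraries were above the other 6, and the M3 libraries lay on either side of M2. The rise in M4 was 3.57-fold over M1 (log2 fold change 1.84, SE 0.32, adjusted p = 0.0051) and 2.62-fold over M2 (1.39, SE 0.32, adjusted p = 0.0197). In M3 the log2 fold change against M1 was 0.75 (SE 0.31, adjusted p = 0.125), and it depended on the M3 replicate, at 1.20 without replicate 1 of M3 (adjusted p = 0.0086) and 0.13 without replicate 2 (adjusted p = 0.643). The call against M2 was lost without any 1 of the M2 or M4 libraries (adjusted p from 0.0787 to 0.133). M4 against M3 was 1.08 (SE 0.32) and just missed the threshold in edgeR (adjusted p = 0.0533), and DESeq2 called it (1.10, adjusted p = 0.00521). It was 1.71 without replicate 2 of M3 (adjusted p = 0.00759) and 0.64 without replicate 1 (adjusted p = 0.0778).

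DST encodes dystonin, whose epithelial form is the hemidesmosomal plakin BP230 (ENSG00000151914, chromosome 6, 56322785 to 56819628, minus strand). Its level was 688.9 and 516.4 CPM in M1 and 930.8 and 862.3 in M2, against 396.7 and 569.9 in M3 and 501.2 and 383.7 in M4. M2 was the highest line, without overlap, and the M3 libraries overlapped those of M1 and M4. Against M1 the log2 fold change was 0.57 in M2 (adjusted p = 0.202), -0.32 in M3 (adjusted p = 0.373) and -0.45 in M4 (adjusted p = 0.192), each with an SE of 0.24. Against M2, DST fell by 1.02 in M4 (SE 0.24, adjusted p = 0.0218), and the value in M3 was -0.89 (adjusted p = 0.0756). The M4 call stood at the 2-fold limit and was lost under other scalings, with a log2 fold change of -0.996 under DESeq2's type of size factors and -0.962 under total counts, in DESeq2 (-0.995), with the 2 doubtful libraries exchanged (-0.64, adjusted p = 0.24), and without any 1 of the M2 or M4 libraries (adjusted p from 0.0592 to 0.142). The gene has 41 annotated transcripts, neuronal and muscle forms among them, which the gene count does not separate.

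CD151 encodes a tetraspanin that holds the laminin-binding integrins in membrane clusters (ENSG00000177697, chromosome 11, 832887 to 839831, plus strand). From lowest to highest library it varied least of the 9 genes, at 239.8 and 253.8 CPM in M1, 265.5 and 264.2 in M2, and in the carcinoma lines 378.6 and 269.6 (M3) and 379 and 359.8 (M4). The 4 libraries of M1 and M2 were the lowest of the 8. The log2 fold change against M1 was 0.58 in M4 (SE 0.18, adjusted p = 0.0403), past the p threshold and under the 2-fold limit, 0.39 in M3 (SE 0.18, adjusted p = 0.152) and 0.10 in M2 (adjusted p = 0.775). CD151 shares 257 exon bases with POLR2L on the opposite strand, which had 7219 to 14224 counts in a library. Whether the counting used strand is not given in the sources used here, so reads of that stretch cannot be told apart.

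Ratios between partner genes within a library, which do not depend on library size, differed among the lines. Per gene count, LAMB3 to LAMA3 was 1.86 and 2.38 in M1, 0.94 and 0.97 in M2, then 1.01 and 0.76 in M3 and 2.01 and 1.79 in M4. M1 and M4, which differed by more than 6-fold in LAMB3, thus both had more LAMB3 than LAMA3 counts in each library, with ratios of 1.79 to 2.38, and the ratios of M2 and M3 lay between 0.76 and 1.01. ITGB4 to ITGA6 was 2.54 and 1.82 in M1 and 0.99 and 0.96 in M2, against 2.66 and 1.60 in M3 and 1.36 and 1.00 in M4. The M2 ratios were the lowest, but replicate 1 of M2 was barely below replicate 2 of M4 (0.994 against 0.998), and M1 and M3 overlapped. PLEC to DST, the plakin ratio, was 0.56 and 0.59 in M1, 0.52 and 0.53 in M2, and in the carcinoma lines 0.95 and 1.38 (M3) and 2.44 and 3.24 (M4). The carcinoma libraries lay above all 4 libraries of M1 and M2, with M4 highest. COL17A1 to ITGB4 was 0.59 and 1.17 in M1, 1.13 and 1.13 in M2, then 0.38 and 0.26 in M3 and 0.71 and 0.75 in M4, lowest in both M3 libraries. With the 2 doubtful libraries exchanged, LAMB3 to LAMA3 would be 1.86 and 0.94 in M1 and 2.38 and 0.97 in M2, and ITGB4 to ITGA6 would be 2.54 and 0.99 in M1 and 1.82 and 0.96 in M2, so the contrasts of M1 with M2 in these ratios depend on the labels. No test was run on the ratios.

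**Figure D3:**
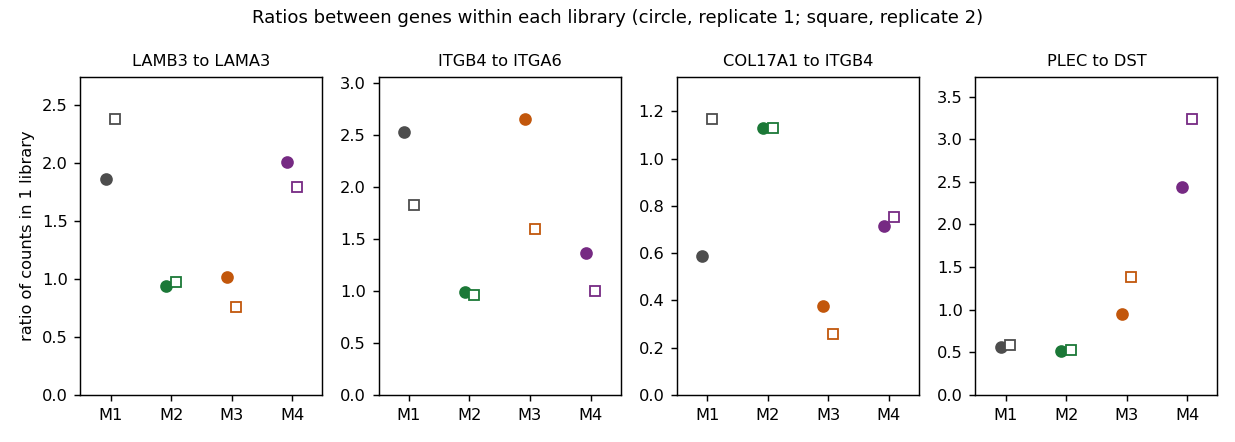
Ratio of counts between pairs of genes within each library, on axes that start at 0. Circles are replicate 1 and squares replicate 2. The PLEC to DST ratio is 0.95 to 3.24 in the carcinoma libraries and 0.52 to 0.59 in those of M1 and M2, and the LAMB3 to LAMA3 ratio is 1.79 to 2.38 in M1 and M4 as labelled.

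Levels of different genes can be compared only per length, here as CPM per kb of each gene's merged exons and as the mean of 2 libraries, which understates a gene such as DST whose transcripts each use only some of its exons. On that scale ITGB4 and COL17A1 were highest in M1, at 111 and 95.1 CPM per kb, and LAMA3, at 8.02, was lowest, below DST at 12.5. In M2, COL17A1 was at 119.6, ITGA6 at 113 and ITGB4 at 109 CPM per kb. In M3 the highest was ITGB4, at 352, followed by ITGA6 at 179 and LAMB3 at 168. In M4 it was LAMB3, at 337 CPM per kb, followed by ITGB4 at 143 and ITGA6 at 125, and DST was lowest at 9.19.

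The rise of LAMB3 in both carcinoma lines, of ITGB4 in M3 and of PLEC in M4 was also called when the 2 libraries of doubtful assignment were exchanged, and the other calls against M1 were not. With the exchange, the log2 fold change of LAMB3 against M1 was 1.76 in M3 (adjusted p = 0.028) and 2.76 in M4 (adjusted p = 0.00298). That of ITGB4 in M3 was 1.68 (adjusted p = 0.0172), and that of PLEC in M4 was 1.5, just past the threshold (adjusted p = 0.0477). For LAMA3 it was 2.19 in M3 (adjusted p = 0.116) and 2.06 in M4 (adjusted p = 0.0597), for ITGA3 1.33 (adjusted p = 0.198) and 1.44 (adjusted p = 0.0936), and for ITGA6 1.19 (adjusted p = 0.271) and 0.68 (adjusted p = 0.43). The M1 libraries then stand at 98.2 and 297.4 CPM for LAMA3, 216.3 and 483.4 for ITGA3 and 290.7 and 756.4 for ITGA6. With both libraries left out, all 5 calls in M3 remained, and in M4 those of LAMA3, LAMB3, ITGA3 and ITGA6 remained, with PLEC at 1.67 (adjusted p = 0.0545). The calls between M2 and M1 were lost under either choice. With the exchange, LAMA3 in M2 against M1 had a log2 fold change of 0.11 (adjusted p = 1) and ITGA3 of 0.04 (adjusted p = 1), and with both libraries left out, which leaves 1 library each of M1 and M2, these were 1.57 (adjusted p = 0.142) and 1.14 (adjusted p = 0.287).

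**Figure D4:**
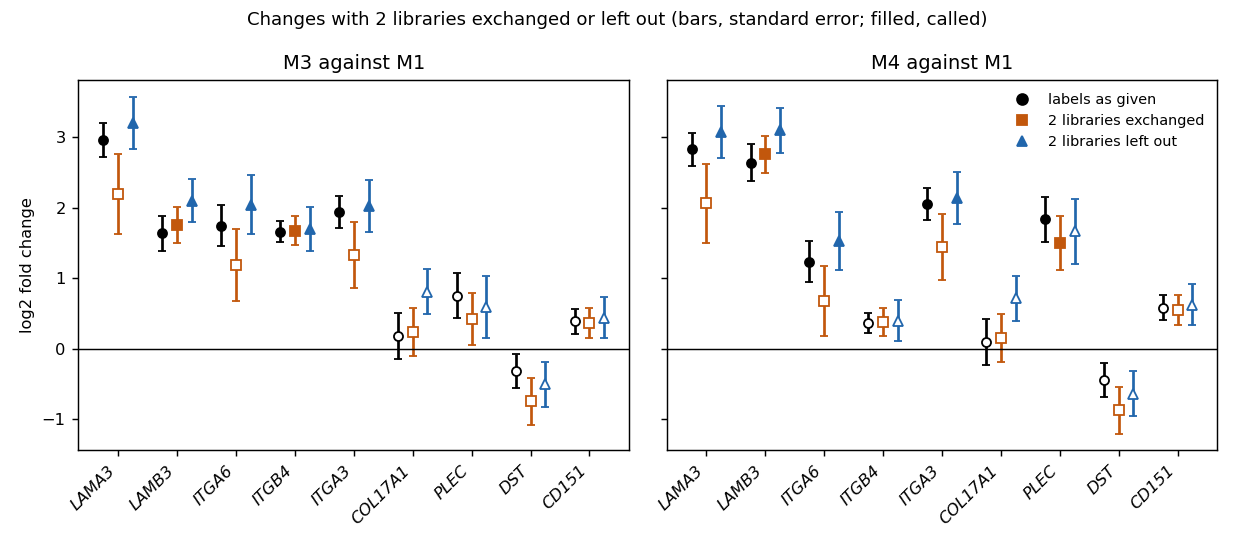
Log2 fold change of each gene in M3 and M4 against M1 with the libraries as labelled, with 2 libraries exchanged between M1 and M2, and with these 2 left out. Bars are 1 standard error and filled points are called. LAMB3 is called in both panels under all 3 choices, and LAMA3, ITGA3 and ITGA6 lose their calls under the exchange, with the M3 value of LAMA3 going from 2.96 to 2.19.

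Other genes of the same contacts were set against M1 in the same fit, and calls were made in both directions. Over all tested genes, 8.02% were called higher and 5.51% lower in M3, and 9.48% and 11.2% in M4. In M2 these shares were 2.26% and 1.11%. Several counts given here and in the following paragraphs are near these shares, and none was tested against them. Of 7 other laminin chain genes tested, 1 rose and 1 fell in M3 and 2 rose and 2 fell in M4, with median log2 fold changes of 0.12 and -0.15. LAMA4, the alpha chain of mesenchymal and vascular laminins, rose by 2.27 on the log2 scale in M4 (adjusted p = 0.000453), from 7.47 and 10.2 CPM in M1 to 36.8 and 48.7. LAMB2, the beta 2 chain, was lower in all 3 lines than in M1, at 170.5 and 222.6 CPM in M1 and 98.7 CPM or less elsewhere. Of 15 other integrin subunits, 5 rose and 1 fell in M3, and 3 rose and 2 fell in M4, and their medians were 1.16 and -0.25. ITGA2, a collagen and laminin receptor subunit, rose in M4 by 2.87 (adjusted p = 0.000531), with 297.4 and 300.8 CPM against 30.5 and 51.4 in M1. ITGB1, the partner of alpha 3, was among those called higher in both carcinoma lines. ITGA10 was higher in M3 (2.51) and lower in M4 (-1.28), at 12.4 CPM or less in every library. None of the 15 was called in M2 by edgeR or by DESeq2, with 3 higher at an unadjusted p under 0.05.

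Among 18 other genes of the basement membrane and its anchoring, 4 rose and 3 fell in M3, and 2 rose and 6 fell in M4 (medians -0.32 and -0.22). COL4A2, a chain of the common type IV collagen, rose in M2 (1.54), M3 and M4 (2.00), and COL4A1 rose with it in M3 and M4. COL4A6, a chain of the epithelial type IV collagen, fell by 1.49 in M3, from 87.6 and 137.2 CPM in M1 to 38.6 and 41.6. The fibulin gene EFEMP1 fell by 3.82 in M4 (adjusted p = 0.000685), to 15.9 and 7.88 CPM. FREM2, an anchoring protein gene, fell by 4.51 in M2 and rose by 2.41 in M3, where its replicates were at 9.87 and 41.2 CPM. Of 10 proteases that process laminin-332 or its neighbours, 2 rose and 2 fell in M4, and 0 were called in M2 or M3 by edgeR, with 1 higher in each by DESeq2 and 2 and 3 higher at an unadjusted p under 0.05. Their median was 0.12 in M3 and -0.23 in M4. PLAU, urokinase, rose by 2.64 in M4 (adjusted p = 0.00362), and MMP2 fell by 5.26 (adjusted p = 0.00407) to 0.20 and 0.55 CPM.

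On the cell's inner side, 4 of 19 focal adhesion genes rose and 1 fell in M3, and 3 rose and 2 fell in M4 (medians 0.21 and 0.43). ACTN1, alpha-actinin, rose by 1.57 in M3, PXN, paxillin, rose by 1.52 in M4, and TNS1, tensin, was called lower in all 3 lines and fell by 6.18 in M4. Of 14 other tetraspanins, 1 fell in M2, 1 rose and 1 fell in M3, and 2 rose and 3 fell in M4 (medians -0.05 and 0.14 in the carcinoma lines). TSPAN15 fell by 1.91 in M2 and rose by 1.13 in M4, TSPAN4 rose by 1.43 in M3, and CD37 fell by 2.20 in M3 and fell by 3.56 in M4, with at most 4.09 CPM in any library. Of the 4 other plakins, DSP, desmoplakin of the desmosome, fell by 1.12 in M3, with M1 libraries at 1910 and 1066 CPM, and MACF1 rose by 1.36 in M4, as PLEC did. The medians of these 4 were -0.08 in M3 and 0.09 in M4. None of the 4 was called in M2 by edgeR, by DESeq2 or at an unadjusted p under 0.05. Of the 5 basal keratins, the filaments to which plectin and BP230 attach, 2 rose in M2, 2 rose and 1 fell in M3 and 3 fell in M4, with a median of 1.19 in M2, 1.80 in M3 and -1.002 in M4. KRT14 rose by 1.51 in M2 and by 2.88 in M3 and fell by 2.37 in M4, at 17.7 and 8.26 CPM in M1, 99.7 and 91.1 in M3 and 2.30 and 2.74 in M4. KRT15 fell by 1.53 in M3, and KRT5, KRT14 and KRT15 were all called lower in M4. A mixed list of 13 transcription factors held TP63 and also repressors of epithelial genes such as SNAI1. Of these, 1 fell in M2 and 3 in M3, and in M4 2 rose and 4 fell, TP63 among the latter (medians -0.45 in M3 and -0.80 in M4). As the list is mixed, its counts and medians do not describe a basal program. SNAI1, a repressor of epithelial genes, rose by 2.25 in M4, at 6.03 CPM or less in every library, and ZEB2 fell by 4.21 in M4, with M1 libraries at 15.2 and 1.85 CPM. ZNF750 was called lower in all 3 lines and fell by 3.17 in M3. With the 2 libraries exchanged, 2 of the 105 tested genes of these 9 lists were called in M3 against M1, where 29 were called as labelled, and 20 in M4 against M1, where 41 were. In M2 against M1 none of the 8 calls as labelled was made, so every change in M2 given here for these lists depends on the assignment. Over all 18431 genes the calls went from 622 to 0 in M2, from 2494 to 219 in M3 and from 3821 to 1559 in M4.

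The genes whose pattern over the 8 libraries was most like that of a member were found by Pearson's r of log2 CPM among 9273 genes with a mean of at least 10 CPM, as a description of 8 libraries from 4 lines. For ITGB4 they were DAP3 (0.994), TGM2 (0.989), LPCAT4 (0.98), GPS1 and SLIT3 (both 0.975). For LAMB3 they were TMEM39A (0.997), CHPF (0.994), ATOSB, SSR3 (both 0.99) and LIF (0.989). KRT6B and PLEK2 (both 0.992), UHRF2 (0.991) and CTSV (0.99) were among those most like LAMA3. For COL17A1 the likeness was lower, led by SFXN3 (0.978), KIAA2013 (0.943), UBA6-DT (0.937), DBN1 (0.934) and CEP41 (0.933).

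The lines kept epithelial markers throughout, and the summed levels of basal and luminal markers differed among them. The summed level of 6 basal markers, which include ITGB4 and COL17A1, was 9640 to 10830 CPM in M1, 14800 to 14930 in M2, 13740 to 15040 in M3 and 6645 to 8330 in M4. That of 6 luminal markers was 2169 to 2888 CPM in M1, 2532 to 2592 in M2, 3659 to 4649 in M3 and 5561 to 8724 in M4, so PLEC and LAMB3 were highest in the line where the luminal sum was highest and the basal sum lowest. The luminal sum is nearly all KRT7, KRT8 and KRT18, keratins of simple epithelia. GATA3, a luminal transcription factor, went the other way, from 74.7 and 98.4 CPM in M1 to 14.7 and 16.5 in M4, and KRT19 and ESR1 were at 4.01 CPM or less in every library, so members of the list went in both directions. The basal sum is mostly KRT5 and KRT17. KRT5 was at 8414 and 6203 CPM in M1 and 3268 and 2837 in M4, and KRT14 and TP63 were also lower in M4. KRT17 was higher in M4, at 3312 and 2117 CPM against 1140 and 1656 in M1, as was ITGB4, and COL17A1 lay within its M1 range. The basal list thus also went in both directions. The part of these shifts in the results was not tested. In bulk RNA, fewer cells of a kind and less RNA per cell cannot be told apart. The 3 pan-epithelial markers summed to 264.4 to 371 CPM in the libraries of M1, M2 and M3 and to 680.2 to 767 in M4. Most of that difference was CLDN4, at 378.8 and 271 CPM in M4 and 56.4 or less elsewhere. CDH1 in M4 (222 and 210.7 CPM) overlapped M1 (185.3 and 220.1), and EPCAM in M4 (166.3 and 198.5) overlapped M3 (117.1 and 183.9). Of 7 fibroblast or mesenchymal markers, which summed to 116 to 417 CPM in M1, 912 to 922 in M2, 1115 to 1909 in M3 and 458 to 580.2 in M4 and were mostly VIM, COL1A2 was at 0 in every library and COL3A1, LUM and PDGFRB were below 1 CPM, as were the endothelial markers CDH5 and VWF and the leukocyte markers PTPRC and CD3E. The leukocyte sum, almost all CD68, was 4.06 to 25.1 CPM in M1, M2 and M3 and 39.0 to 51.4 in M4.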

How the data were processed

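Poly A+ RNA of M1 to M4 was sequenced in paired ends. The authors trimmed reads with Trimmomatic, aligned them with STAR to hg19 and deposited expected counts per gene from STAR/RSEM on GENCODE v19; versions and strand setting are not given in the sources used here. The deposited counts are not normalized and were rounded. Genes were matched by Ensembl ID to GENCODE 44 on GRCh37. The 8 libraries were fitted together in edgeR 4.0.16 (R 4.3.3; quasi-likelihood F test, robust, TMM, filterByExpr, 1 coefficient per line), with Benjamini-Hochberg adjustment over 18431 genes. The standard error is that implied by F. The step was tested on simulated counts that gave each gene the same spread in all 4 lines. That test does not cover the unlike spreads of these lines.

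All 9 genes and HRAS were named. From each of 9 gene lists the largest called rise and fall with at least 100 counts in both replicates of the higher line was named, and for 4 genes the 5 most alike in pattern; COL4A1, ITGB1, KRT5 and TP63 were named after their values were seen. Genes and lists were chosen with earlier results of these data known. Alternatives were DESeq2 1.42.0, DESeq2's type of size factors, total counts, no filter, only the lines compared, a replicate block, no fold limit, each replicate left out, 2 libraries exchanged or left out and, added after seeing the data, no M2 library. The values of 1 other gene are left out.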

Additional observations from a re-analysis of the deposited data

Results flagged for a closer look

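The changes of the carcinoma lines from their common parent M2 differed between M3 and M4 for 2 of the 9 genes, as tested by the contrast of M4 with M3 in the edgeR fit (Benjamini-Hochberg adjusted p). Over all tested genes, 3.99% were called higher and 6.3% lower in M4 than in M3. LAMB3 was higher in M4 than in M3 by 1.001 on the log2 scale (adjusted p = 0.0318), with both M4 libraries above both M3 libraries. It lost the call in each fit that left out 1 of these libraries. The call was also lost with replicate 2 of M1 and replicate 1 of M2 exchanged or both left out. Without the filter on low counts, or with no M2 library in the fit, it was lost as well. ITGB4 was lower in M4 than in M3 (log2 difference -1.2957, adjusted p = 0.00317) and both M4 libraries below both M3 libraries, and kept the call in every alternative run.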

How the results depend on the processing

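Of 729 values of single genes under the alternatives, 638 kept direction and side of the threshold, 57 lost and 14 gained a call, and 20 changed sign, none of them called as reported. The calls in M2 against M1 numbered 2, with 1 under total counts, 0 with 2 libraries exchanged or with both left out, and 0 to 1 without single replicates. With the exchange the calls went from 5 to 2 in M3 against M1, from 5 to 2 in M4 against M1, from 3 to 1 in M3 against M2, from 2 to 1 in M4 against M3 and from 4 to 2 in M4 against M2, while the calls over all genes went from 2494 to 219, 3821 to 1559, 765 to 214, 1897 to 830 and 2567 to 1889. With both left out they were 1 in M3 against M2, 1 in M4 against M3 and 2 in M4 against M2, and with no M2 library 1 in M4 against M3. Without single replicates they ran from 0 to 4 in M3 against M2, 1 to 2 in M4 against M3, 1 to 2 in M4 against M2, 5 to 6 in M3 against M1 and 4 to 5 in M4 against M1. The calls over all genes also fell without any single replicate, except that they rose in M2 against M1 without replicate 2 of M1. Causes beyond the smaller or regrouped sets of libraries were not tested.

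Sign changes with the exchange, all in M2 against M1, were ITGB4 0.0053, DST -0.23 and PLEC -0.20, and under total counts COL17A1 was 0.054 in M4 against M3. Without single replicates, log2 fold changes crossed 0 in M2 against M1 for LAMB3 (-0.18 to 0.63), COL17A1 (-0.10 to 0.95) and ITGB4 (-0.053 to 0.0094). COL17A1 ran from -0.25 to 0.81 in M3 and from -0.32 to 0.72 in M4 against M1. In M3 against M2, COL17A1 ran from -0.43 to 0.089 and PLEC from -0.32 to 0.75. In M4 against M3 the ranges were -0.37 to 0.14 for LAMA3, -0.33 to 0.19 for COL17A1, -0.18 to 0.47 for ITGA3, -0.37 to 0.15 for DST and -0.039 to 0.45 for CD151, and ITGA6 in M4 against M2 ran from -0.026 to 0.32.

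The correlation of the deviations of same-numbered replicates was 0.25 between M3 and M4 and from -0.072 to 0.01 for the other 5 pairs of lines. The replicates number 2 a line and the labels give them no shared source, so the numbers were not read as pairing. With the replicate block, ITGA6 joined the calls in M2 against M1 (1.13, adjusted p = 0.0362 in edgeR), giving 3, and the counts were 5, 5, 3, 2 and 4 in M3 and M4 against M1, M3 against M2, M4 against M3 and M4 against M2. With 2 replicates a line, each fit that leaves out 1 assumes that the lone library varies like the others.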
